A study of Mus musculus with 4 samples.

Results

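*Apoe*, *Saa3* and *Wfdc17*, 3 of the 18695 genes counted in single cells from the bone marrow of WT and *Tet2* KO mice, were followed through every library and cell type. They were chosen from earlier results of these same libraries, so their levels are given as a description and no difference between genotypes in them was tested. Each of 4 libraries was 1 genotype in 1 sort, with no replicate library, and a difference between genotypes cannot be told apart from a difference between mice or preparations. The GMP sort took Lin- cKit+ Sca1- CD34+ CD16/32+ cells (granulocyte-monocyte progenitors), and the Lin-/CD11b+ sort took Lin- progenitors together with CD11b+ cells. Both genotypes carried *Tet2* fl/fl alleles, the WT animals were the littermates without Mx1-Cre, and all animals received pI:pC by intraperitoneal injection, 12.5 ug/g at each of 4 times, so the controls had met the same interferon-inducing agent. Mx1-Cre is driven by an interferon-inducible promoter and is not limited to blood cells. Mice were 8 to 12 weeks old.

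*Apoe* encodes a secreted apolipoprotein that carries lipids and is a ligand of lipoprotein receptors, and in blood-forming tissue it is best known as a product of macrophages. *Saa3* encodes a serum amyloid A, an acute phase protein, and differs from the serum amyloids of the liver in being made by macrophages and other cells in inflamed tissue. *Wfdc17* encodes a small secreted protein with a whey acidic protein domain, known from activated macrophages, and *Tet2* encodes an enzyme that oxidises 5-methylcytosine in DNA.

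In the GENCODE vM21 annotation of mouse build GRCm38 (mm10), *Apoe* (ENSMUSG00000002985.16) lay at chr7:19696109-19699188 on the minus strand, *Saa3* (ENSMUSG00000040026.8) at chr7:46711998-46715700 on the minus strand, and *Wfdc17* (ENSMUSG00000069792.5) at chr11:83703991-83706268 on the plus strand. The sequence just before each annotated start, from RefSeq (GRCm38.p6) and written 5′ to 3′ on the strand of the gene, is shown because CpG dinucleotides, in capitals, are the sites that *Tet2* acts on. DNA methylation was not measured in these libraries.
*Apoe*, 250 bases, chr7:19699189-19699438, minus strand: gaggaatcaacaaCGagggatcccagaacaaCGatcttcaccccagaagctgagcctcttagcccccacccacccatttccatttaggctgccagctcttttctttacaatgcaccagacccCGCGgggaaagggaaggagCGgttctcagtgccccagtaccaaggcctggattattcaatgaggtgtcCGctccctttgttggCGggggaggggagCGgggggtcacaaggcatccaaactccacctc
*Saa3*, 226 bases, chr7:46715701-46715926, minus strand: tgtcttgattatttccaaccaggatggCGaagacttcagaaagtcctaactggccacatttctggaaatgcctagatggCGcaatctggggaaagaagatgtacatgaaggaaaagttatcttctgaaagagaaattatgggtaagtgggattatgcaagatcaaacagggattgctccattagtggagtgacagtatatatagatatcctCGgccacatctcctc
*Wfdc17*, 185 bases, chr11:83703806-83703990, plus strand: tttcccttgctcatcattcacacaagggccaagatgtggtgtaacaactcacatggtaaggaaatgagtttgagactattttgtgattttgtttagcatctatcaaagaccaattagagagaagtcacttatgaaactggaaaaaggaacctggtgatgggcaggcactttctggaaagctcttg
The windows differed in CpG content. *Apoe* held 8 CpG in 250 bases, against a median of 6 over all 32851 RefSeq promoter entries cut to the same length. *Saa3* held 3, against a median of 5, and *Wfdc17* held 0, against a median of 4, with 12.3% of entries at as few. A search of both strands for the core of interferon response elements, in which GAAA recurs after any 2 bases, found 1 match in the *Saa3* window, 101 bases before the start, and 2.69% of entries of that length held one. GAGGAA, the core bound by PU.1, occurred 1 time in the *Apoe* window, 250 bases before the start, and in 23.3% of entries. TATAAA, the NF-kB motif and TTNNGNAAT, a narrow form of the C/EBP motif, were in none of the 3 windows, which says only that these letters were not there. Wider forms of the C/EBP motif were not searched for.

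The libraries held 1258 (WT GMP), 2719 (*Tet2* KO GMP), 1924 (WT Lin-/CD11b+) and 3068 (*Tet2* KO Lin-/CD11b+) cells, with 22681380 to 42561110 unique molecular identifiers (UMIs, each marking 1 captured RNA molecule) and median depths of 10417 to 18713 UMIs per cell. In the study's sample list the cell numbers of the *Tet2* KO GMP and WT Lin-/CD11b+ libraries stand exchanged. The deposited assignment was used here, and under it the WT Lin-/CD11b+ library held 154 neutrophil-like, 154 plasma-cell-like, 41 B-cell-like and 18 T/NK-like cells while the *Tet2* KO GMP library held 0, 1, 0 and 0. Cell barcodes were shared between libraries for 74 of 8969 cells. *Tet2* itself was at 13 CPM (UMIs of the gene per 1000000 UMIs) in WT and 17.0 in *Tet2* KO cells of the GMP sort, and at 13.4 and 20.7 in the Lin-/CD11b+ sort. A sum of UMIs over the whole gene does not show whether the floxed part was lost, so it does not check the genotype.

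Cell types were assigned to each cell from lists of marker genes that hold none of the 3 genes, and carry the ending -like. GMP-like cells were split by a UMI of *Cebpe*, a granulocytic regulator, or of *Ly86*, a monocytic marker. Of the 9 types defined by a list of their own, the monocyte, neutrophil, basophil, B-cell and plasma-cell markers were all highest in their own type, and 6 of 7 to 9 of 10 markers were in the pDC-, HSPC-, T/NK- and DC-like cells. Since the same markers assigned the types, this follows largely from the assignment and is no check of it. Few cells were assigned as macrophages, the cells that the 3 genes are best known from. Of 13 macrophage markers 12 were in the table, their summed level was 15.6 CPM in WT and 15.7 in *Tet2* KO cells of the GMP sort and 23.1 and 25.5 in the Lin-/CD11b+ sort, and 1, 1, 2 and 4 cells were macrophage-like. *Cd5l* was at 0 in the *Tet2* KO Lin-/CD11b+ library, and cells with a UMI of *C1qa*, *C1qb* or *C1qc*, 2, 1, 6 and 11 in the 4 libraries, held at most 3.20% of the *Apoe*, 6.80% of the *Saa3* and 2.23% of the *Wfdc17* UMIs of their library. The other markers varied in the *Tet2* KO Lin-/CD11b+ library. *Hmox1* was in 225 cells, *Adgre1* in 165, *Vcam1* in 79, *Slc40a1* in 73, *Axl* in 47, *Mrc1* in 32, *Spic* in 5 and *Mertk* in 1.

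All 3 genes had higher CPM in the *Tet2* KO than in the WT library of the same sort, by very different amounts. For *Apoe*, WT and *Tet2* KO cells of the GMP sort were at 100 CPM (95.9 to 104.2) and 120.4 (117.1 to 123.7), a log2 ratio of 0.27 (0.20 to 0.34). In the Lin-/CD11b+ sort *Apoe* was at 102.5 (98.4 to 106.8) and 227.7 CPM (222.7 to 232.9), a log2 ratio of 1.15 (1.08 to 1.22). These and all further intervals are 95% intervals, exact Poisson for CPM, exact conditional binomial for ratios and exact binomial (Clopper-Pearson) for shares of cells, and cover counting error only, not the spread between mice.

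*Saa3* had the fewest UMIs and the widest ratios. There were 20 UMIs of *Saa3* in WT and 320 in *Tet2* KO cells of the GMP sort, 0.874 and 7.52 CPM, a log2 ratio of 3.11 (2.45 to 3.84). In the Lin-/CD11b+ sort there were 30 and 1029 UMIs, 1.32 and 30.2 CPM, a log2 ratio of 4.52 (3.99 to 5.09). Without the 662 cells that met the markers of more than 1 type, possible doublets, the latter was 3.41.

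*Wfdc17* stood between the other 2. It was at 8.82 CPM in WT and 14.2 in *Tet2* KO cells of the GMP sort, a log2 ratio of 0.69 (0.46 to 0.93), and at 84.3 and 278.0 CPM in the Lin-/CD11b+ sort, a log2 ratio of 1.72 (1.65 to 1.79). As background, of genes with at least 100 UMIs over a pair of libraries, 0.19% in the GMP sort and 0.809% in the Lin-/CD11b+ sort were at least 2-fold higher in the *Tet2* KO library on the scale of CPM + 1, and the median log2 ratio was -0.05 and 0.08. All 3 genes passed the limit of 100 UMIs in both sorts, and *Saa3* in the GMP sort and all 3 in the Lin-/CD11b+ sort were past 2-fold, which is how they were chosen. With cell types weighted equally the log2 ratio of *Apoe* in the Lin-/CD11b+ sort was 0.52, and on CPM + 10 that of *Saa3* in the GMP sort was 0.69, both short of 2-fold.

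The UMIs of *Saa3* sat in few cells, and its shares of cells with a UMI differed less than its CPM. In the GMP sort *Saa3* had a UMI in 1.59% of the WT cells (0.973% to 2.44%) and 4.45% of the *Tet2* KO cells (3.71% to 5.29%), and in the Lin-/CD11b+ sort in 1.14% (0.717% to 1.73%) and 4.24% (3.55% to 5.01%). The highest single cell held 1, 33, 7 and 144 UMIs in WT GMP, *Tet2* KO GMP, WT Lin-/CD11b+ and *Tet2* KO Lin-/CD11b+, and in the last of these 6 cells held 50% of the UMIs of *Saa3*. *Apoe* had a UMI in 29.9%, 45.9%, 20% and 36.2% of cells in the same order, and 50% of its UMIs lay in 50, 161, 46 and 113 cells. *Wfdc17* had one in 11.6%, 14.5%, 30.1% and 47.3% of cells, and 50% of its UMIs lay in 45, 107, 86 and 183 cells. With each cell thinned to 5000 UMIs, so that depth is equal, the *Apoe* shares were 17.1%, 26.8%, 14.1% and 27.3%, the *Saa3* shares 0.238%, 1.99%, 0.416% and 2.71%, and the *Wfdc17* shares 4.45%, 5.59%, 21.6% and 36.4%. The cumulative plot shows these differences in concentration.

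**Figure D1:**
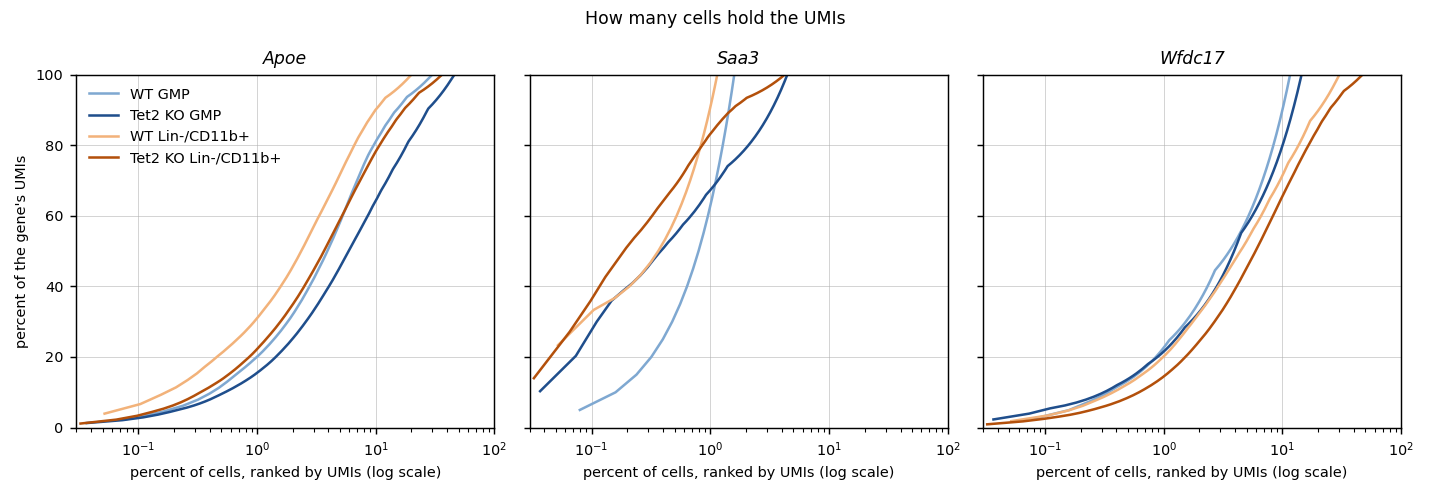
Percent of the UMIs of each gene (y axis) held by the cells ranked from most to fewest UMIs of the gene, as percent of all cells of the library (x axis), 1 line per library. The *Saa3* lines climb steepest, with 6 of 3068 cells of the *Tet2* KO Lin-/CD11b+ library at 50% of its UMIs, and the *Wfdc17* and *Apoe* lines climb over more cells.

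The types that held each gene were different, as the plot of levels by cell type shows. *Apoe* was highest in basophil-like cells in every library, at 1059 CPM (1006 to 1114) in WT GMP, 1183 (1131 to 1236) in *Tet2* KO GMP, 884 (810.4 to 962) in WT Lin-/CD11b+ and 877 (819 to 939) in *Tet2* KO Lin-/CD11b+. Between 91.0% and 100% of these cells had a UMI of *Apoe*. The log2 ratios of *Tet2* KO over WT in basophil-like cells were 0.16 (0.06 to 0.26) and -0.01 (-0.17 to 0.15), so the type with the most *Apoe* differed little between genotypes in these libraries. The background shares at 2-fold in this type were 0.165% in the GMP and 1.09% in the Lin-/CD11b+ sort, and 1 member, *Apoe*, passed the limit of 100 UMIs and was not past 2-fold.

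Basophil-like cells made up 8.82% of WT and 5.41% of *Tet2* KO cells of the GMP sort and held 65.8% and 38.8% of the *Apoe* UMIs there. Leaving them out, an alternative added after the data were seen, gave a log2 ratio of *Apoe* of 1.07 in the GMP and 1.37 in the Lin-/CD11b+ sort. The library ratio of *Apoe* in the GMP sort thus moved with the basophil-like share, which the sort gate and the assignment of types also set.

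**Figure D2:**
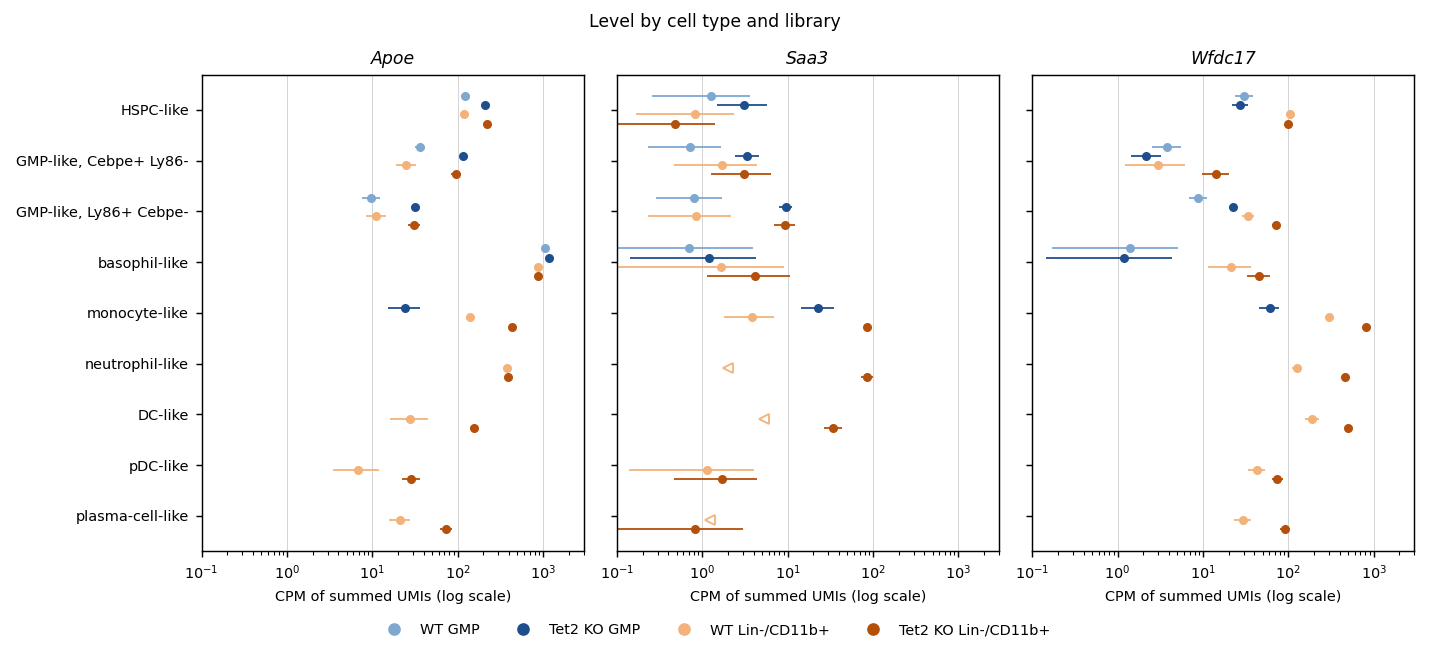
CPM of UMIs summed per cell type and library (log axis) for the 3 genes in 9 cell types, where a library had at least 50 cells of the type, with exact 95% Poisson intervals, and open triangles at the level of 3 UMIs where none was counted. Among the types drawn, *Apoe* is highest in basophil-like cells in all 4 libraries, *Wfdc17* in the monocyte-like cells from the Lin-/CD11b+ sort, and *Saa3* in *Tet2* KO monocyte- and neutrophil-like cells.

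Among the progenitors, *Apoe* was higher in *Tet2* KO than in WT cells in each type with a ratio, with intervals of the ratio above 0. In HSPC-like cells (stem and early progenitor cells) it was at 123.2 and 210.4 CPM in the GMP sort, log2 ratio 0.77 (0.57 to 0.97), and at 119.1 and 219.3 in the Lin-/CD11b+ sort, log2 ratio 0.88 (0.72 to 1.04). In *Cebpe*+ *Ly86*- GMP-like cells, the granulocytic side, it was at 35.8 and 115.0 CPM, log2 ratio 1.69 (1.49 to 1.89), and at 25 and 96.2, log2 ratio 1.95 (1.52 to 2.39). In *Ly86*+ *Cebpe*- GMP-like cells, the monocytic side, it was at 9.77 and 31.3 CPM, log2 ratio 1.68 (1.32 to 2.06), and at 11.1 and 30.6, log2 ratio 1.46 (1.0 to 1.94). The order of levels, HSPC-like above *Cebpe*+ above *Ly86*+, was thus the same in all 4 libraries, with intervals that did not overlap. In *Cebpe*+ *Ly86*+ GMP-like cells of the GMP sort *Apoe* was at 11.1 and 40.2 CPM and in those with neither at 39.9 and 63.7. How far the *Apoe* UMIs were spread over cells differed between the progenitor types. In *Tet2* KO *Cebpe*+ *Ly86*- GMP-like cells of the GMP sort the 3 cells with most UMIs held 3.93% of the *Apoe* UMIs, and 32.5% of the WT and 54.6% of the *Tet2* KO cells had a UMI, or 12.4% and 31.1% with cells thinned. In HSPC-like cells the 3 highest held 7.54% to 20.3%. They held 37.9% in WT *Cebpe*+ *Ly86*- and 50% in *Tet2* KO *Cebpe*+ *Ly86*+ cells of the Lin-/CD11b+ sort. In WT cells with neither marker of the GMP sort they held 64%.

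*Saa3* was near its floor in HSPC-like cells, with 3, 10, 3 and 3 UMIs in WT GMP, *Tet2* KO GMP, WT Lin-/CD11b+ and *Tet2* KO Lin-/CD11b+. Its counts were higher in *Ly86*+ *Cebpe*- GMP-like cells of *Tet2* KO mice, at 0.792 and 9.58 CPM in the GMP sort (6 and 129 UMIs, log2 ratio 3.60, 2.44 to 5.07) and 0.841 and 9.30 in the Lin-/CD11b+ sort (4 and 48 UMIs, log2 ratio 3.47, 2.02 to 5.40). In the first of these pairs the 3 highest cells held 44.2% of the *Tet2* KO UMIs. In *Cebpe*+ *Ly86*- GMP-like cells there were 5 and 40 UMIs in the GMP sort, log2 ratio 2.24 (0.90 to 3.94), and 4 and 7 in the Lin-/CD11b+ sort, with an interval of the log2 ratio that held 0 (-1.12 to 3.08).

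*Wfdc17* did not run with *Apoe* in the progenitors. In HSPC-like cells it was at 30.4 and 27.1 CPM in the GMP sort and 103.4 and 99 in the Lin-/CD11b+ sort, with log2 ratios of -0.16 (-0.63 to 0.30) and -0.06 (-0.25 to 0.13). In *Ly86*+ *Cebpe*- GMP-like cells it was higher in *Tet2* KO cells, at 8.84 and 22.6 CPM, log2 ratio 1.35 (0.97 to 1.76), and at 33.7 and 70.9, log2 ratio 1.08 (0.80 to 1.35). In *Cebpe*+ *Ly86*- GMP-like cells of the GMP sort it was at 3.83 and 2.18 CPM, log2 ratio -0.82 (-1.65 to 0.02), from 27 and 26 UMIs, and in the Lin-/CD11b+ sort at 3.01 and 14.3, where 1 cell held 18 of 32 *Tet2* KO UMIs. *Wfdc17* was therefore higher in *Tet2* KO cells on the monocytic side in both sorts, and its HSPC-like levels lay within counting error of each other.

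The background shares at 2-fold were 0.172% and 0.423% in HSPC-like cells of the GMP and Lin-/CD11b+ sorts, 0.264% and 0.513% in *Cebpe*+ *Ly86*- and 0.33% and 0.324% in *Ly86*+ *Cebpe*- GMP-like cells. In HSPC-like cells 2 members (*Apoe* and *Wfdc17*) passed 100 UMIs in each sort and neither was past 2-fold. In *Cebpe*+ *Ly86*- cells only *Apoe* passed, and was past 2-fold in both sorts. In *Ly86*+ *Cebpe*- cells all 3 passed in the GMP sort, *Apoe* and *Wfdc17* did in the Lin-/CD11b+ sort, and all of these were past 2-fold, a count that follows from how the genes were chosen.

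**Figure D3:**
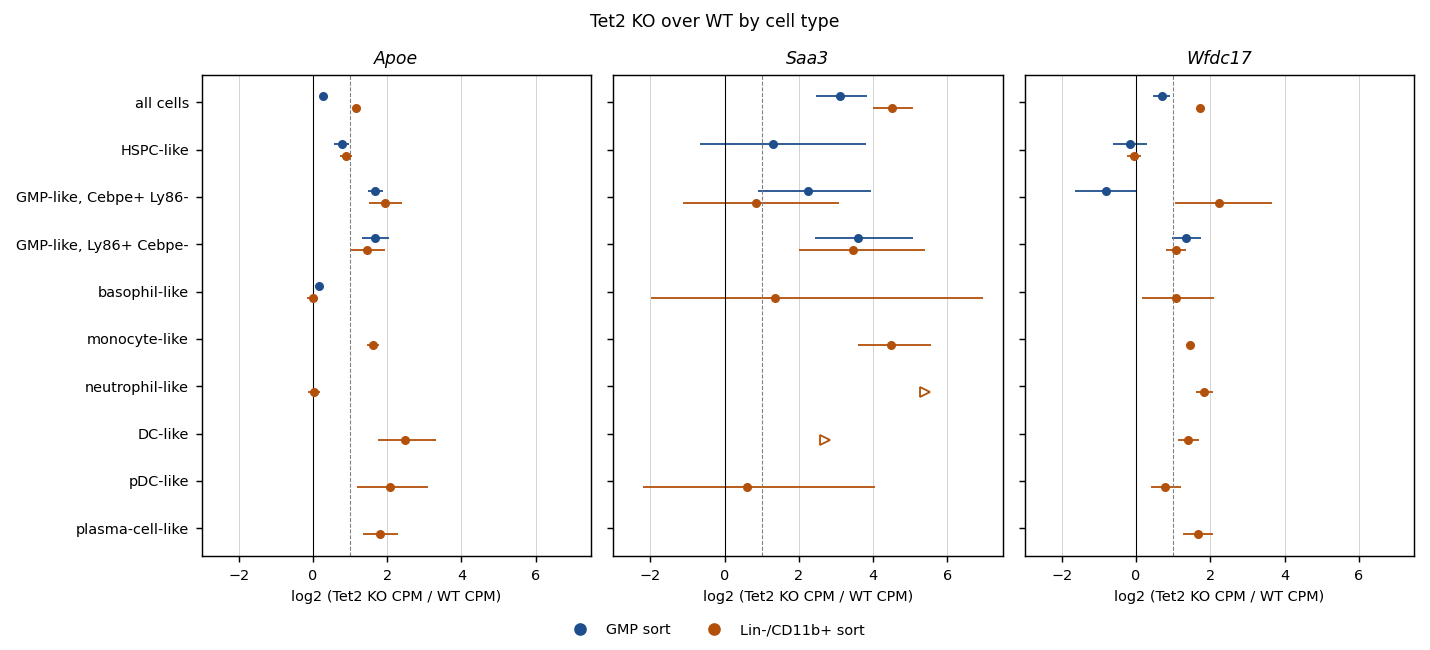
Log2 ratio of the CPM in *Tet2* KO over WT cells for the library and for each type with at least 50 cells in both libraries of a sort, with exact 95% conditional binomial intervals, open triangles for ratios against a WT library at 0, set to 3 UMIs, and a dashed line at 2-fold. Basophil-like cells are near 0 for *Apoe*, HSPC-like cells near 0 for *Wfdc17*, and the monocyte-like ratios lie past the dashed line for all 3 genes.

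Within the HSPC-like cells, *Apoe* and *Wfdc17* were high in different groups. HSPC-like cells were split by UMIs of *Gata2*, a regulator of stem cells, basophils and mast cells, and *Flt3*, a receptor of lymphoid-primed and dendritic progenitors. This split was chosen after the values had been seen. With cells that had UMIs of both left aside, *Apoe* and *Wfdc17* ran in opposite order in the Lin-/CD11b+ sort. *Apoe* was at 349.8 CPM (303.5 to 401.3) in WT and 603 (549 to 659.6) in *Tet2* KO *Gata2*+ *Flt3*- cells, at 156.5 and 238.8 in cells with neither, and at 24.0 (17.3 to 32.5) and 59.0 (49.1 to 70.3) in *Flt3*+ *Gata2*- cells. *Wfdc17* was at 20.6 (10.6 to 36.0) and 42.2 (29.1 to 59.3), 85.6 and 80.9, and 144.2 (127.0 to 163.2) and 140.2 (124.7 to 157.1) in the same order. The groups held 49 and 87, 102 and 295, and 135 and 189 cells. *Saa3* had at most 2 UMIs in each of them. The 27 *Tet2* KO cells of this sort with UMIs of both *Gata2* and *Flt3* were at 151.8 CPM (110.3 to 203.8) of *Apoe*, above the *Flt3*+ *Gata2*- cells. Their *Wfdc17*, at 141.4 CPM (101.5 to 191.9), was near the level of those cells. The 17 WT cells with both were under the limit of 20 cells. After thinning, 10 WT and 48 *Tet2* KO HSPC-like cells of this sort held both *Apoe* and *Wfdc17*, where independent detection would give 18.6 and 68.5. In the GMP sort 2 WT and 13 *Tet2* KO HSPC-like cells held both, beside 4.71 and 12.4.

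The monocyte-like cells of the Lin-/CD11b+ sort held the highest *Wfdc17* levels of their libraries among types with 50 cells, and all 3 genes were higher in the *Tet2* KO than in the WT cells. They held 33.3% of the *Saa3* UMIs of the WT and 52.5% of those of the *Tet2* KO library. There were 283 WT and 633 *Tet2* KO monocyte-like cells, with median depths of 9090 and 9469 UMIs. *Apoe* was at 140.2 CPM (126.3 to 155.2) in WT and 433 (417 to 449) in *Tet2* KO cells, log2 ratio 1.63 (1.47 to 1.79), with a UMI in 17.3% and 36.5% of cells. *Wfdc17* was at 295.9 (275.6 to 317.4) and 815.1 CPM (793.0 to 838), log2 ratio 1.46 (1.35 to 1.57), with a UMI in 69.3% and 88.0% of cells. *Saa3* had 10 UMIs in 4 WT cells and 540 UMIs in 63 *Tet2* KO cells, 3.78 and 85.4 CPM, log2 ratio 4.50 (3.61 to 5.57), and 3 *Tet2* KO cells held 42.4% of those UMIs. Without the 3 highest cells of each library the log2 ratio of *Apoe* was 2.17 and of *Wfdc17* 1.56, and *Saa3* was left with 1 WT UMI. Without cells that met the markers of another type, *Tet2* KO monocyte-like cells were at 351.5 CPM of *Apoe*, 49.0 of *Saa3* and 750.7 of *Wfdc17*, beside 136.4, 3.83 and 283.6 in WT. In the GMP sort 59 monocyte-like cells came from the *Tet2* KO library, at 23.9 CPM of *Apoe*, 22.9 of *Saa3* and 60.3 of *Wfdc17*, and 2 from the WT library, so no ratio was formed.

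Among monocyte-like cells, *Apoe* and *Wfdc17* in both genotypes and *Saa3* in *Tet2* KO cells were higher in those with *Clec4a1* or *Clec4a3*, which encode C-type lectin receptors. In cells with a UMI of either (106 WT and 308 *Tet2* KO cells, a split chosen after the values had been seen), *Apoe* was at 365.8 and 932.3 CPM, *Wfdc17* at 547 and 1421, and *Saa3* at 1.06 and 178.8. In the 177 WT and 325 *Tet2* KO cells without, *Apoe* was at 15.8 and 30.3 CPM, *Wfdc17* at 157.7 and 327.1, and *Saa3* at 5.28 and 10.3. The log2 ratios were 1.35 (1.19 to 1.52) and 0.93 (0.31 to 1.60) for *Apoe* and 1.38 (1.25 to 1.51) and 1.05 (0.86 to 1.25) for *Wfdc17*, with and without a UMI of *Clec4a1* or *Clec4a3*. For *Saa3* they were 7.39 (4.91 to 12.70) from 1 and 504 UMIs, and 0.96 (-0.12 to 2.20) from 9 and 36 UMIs. Cells with the lectins made up 37.5% of WT and 48.7% of *Tet2* KO monocyte-like cells, so this share differed between the libraries as well. Median depths were 8516.5 and 8120 UMIs with and 9492 and 10415 without a lectin UMI.

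**Figure D4:**
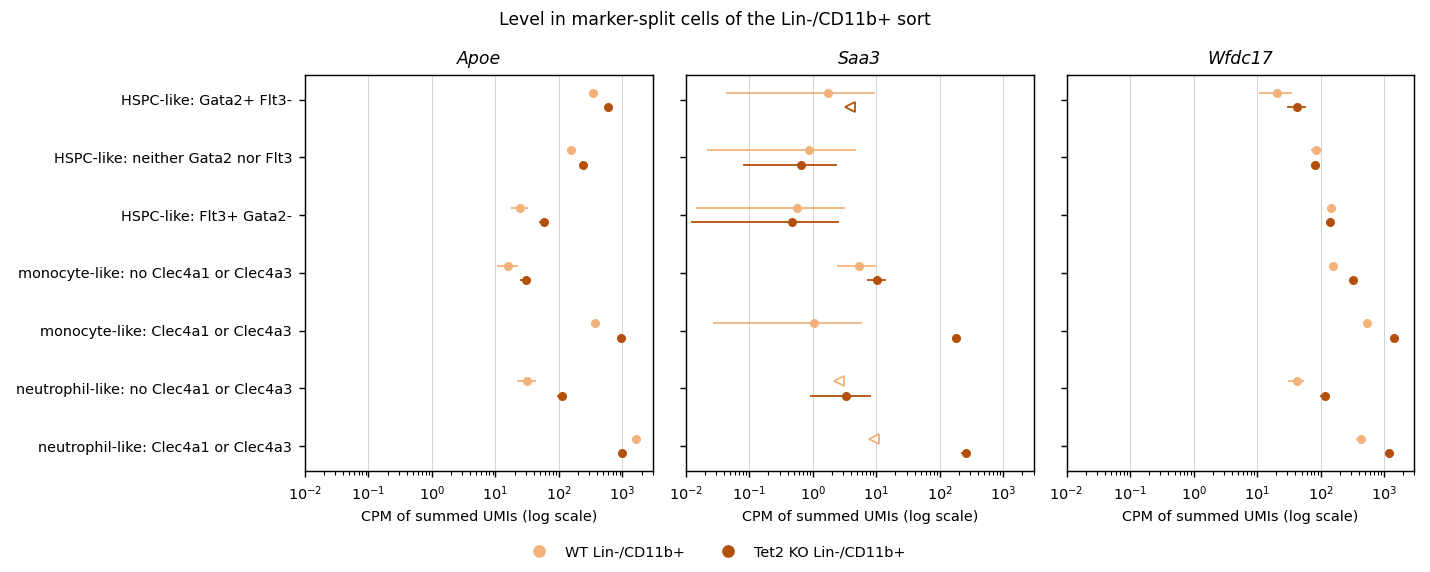
CPM of the 3 genes (log axis, exact 95% Poisson intervals, open triangles at 3 UMIs where none was counted) in HSPC-like, monocyte-like and neutrophil-like cells of the Lin-/CD11b+ sort split by UMIs of other genes. *Apoe* and *Wfdc17* run in opposite order over the HSPC-like groups drawn, which leave out cells with UMIs of both *Gata2* and *Flt3*. All 3 genes are higher in *Tet2* KO cells with a UMI of *Clec4a1* or *Clec4a3* than in those without.

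A small set of cells carried most of the monocytic *Apoe*. In *Tet2* KO monocyte-like cells of the Lin-/CD11b+ sort, 92 cells had 5 or more UMIs of *Apoe*, and these cells were at 2863 CPM of *Wfdc17* and 497 of *Saa3*, against 427 and 9.51 in the 402 cells with no *Apoe* UMI. They also had more *Clec4a3* (397 against 35.9 CPM) and more *Fn1*, a monocyte marker (813 against 220.5 CPM), but less *Ly6c2*, another one (1959 against 3523 CPM). The summed neutrophil markers were at 2090 against 82.5 CPM in them, the summed dendritic cell markers at 1717 against 361.5 and *Cd74*, an antigen presentation gene, at 977 against 191.8, and the part of cells of other types in these levels was not tested. Their summed macrophage markers stood at 161.1 CPM against 32.1, with 0 CPM of *C1qb*. In WT there were 16 such cells, at 2134 CPM of *Wfdc17* and 0 UMIs of *Saa3*, against 209.8 and 4.44 CPM in 234 cells without *Apoe*. The 27 *Tet2* KO monocyte-like cells with 5 or more UMIs of *Saa3* were at 2177 CPM of *Apoe* and 2768 of *Wfdc17*, and 92.6% and 100% of them had a UMI of these genes. After thinning, 33 *Tet2* KO monocyte-like cells held *Apoe* and *Saa3*, where independent detection would give 14.3, 172 held *Apoe* and *Wfdc17* (147.1) and 44 held *Saa3* and *Wfdc17* (36.0). In the plot of single cells these cells are the upper tail of the *Tet2* KO monocyte-like points.

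**Figure D5:**
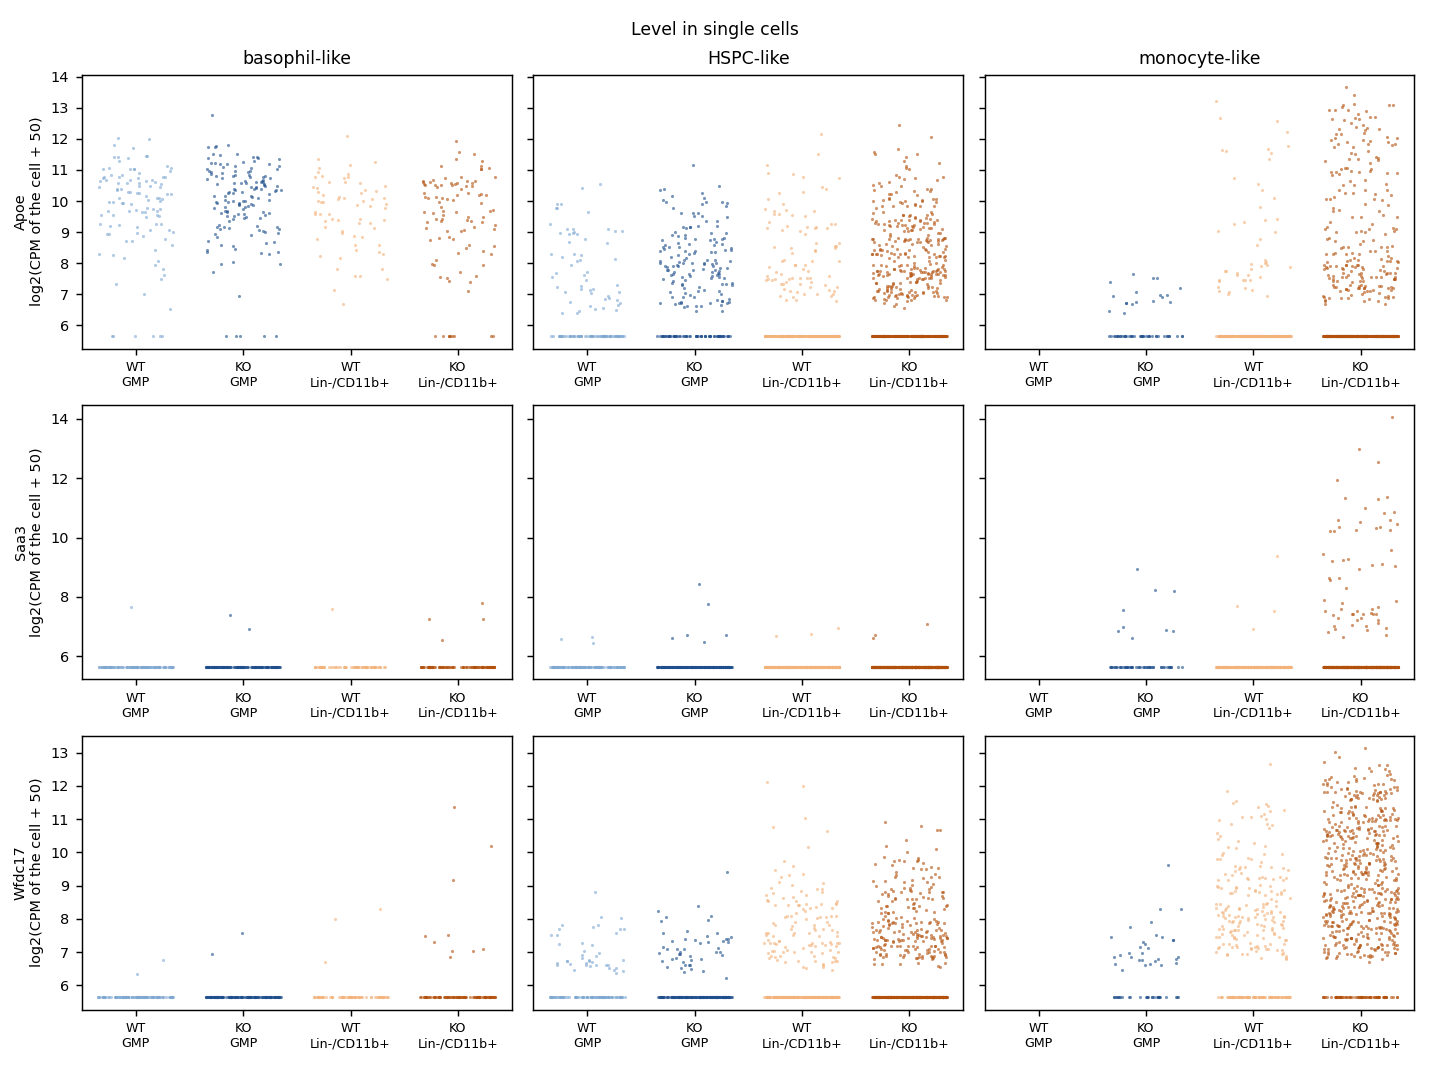
Level per cell, log2(CPM + 50), of the 3 genes in basophil-like, HSPC-like and monocyte-like cells, 1 point per cell and 1 column per library, where cells with no UMI lie on the lowest line. *Apoe* is high in nearly every basophil-like cell, and in monocyte-like cells it is high in a tail of cells only, which is fuller in the *Tet2* KO Lin-/CD11b+ library.

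For the other mature types of the Lin-/CD11b+ sort, levels were read with and without cells that met the markers of another type. Whether *Apoe*-high monocytic cells were among those cells was not tested. Neutrophil-like cells (154 WT and 171 *Tet2* KO) were at 378 (348 to 411) and 386 CPM (358 to 416) of *Apoe*, log2 ratio 0.03 (-0.13 to 0.19), and at 127.2 (109.8 to 146.5) and 456 (425 to 488) of *Wfdc17*, log2 ratio 1.84 (1.61 to 2.08). Both values rest on cells that met the markers of another type as well, 23.6% of neutrophil-like cells. Without those cells the *Apoe* log2 ratio was -0.81 (186.4 and 106.4 CPM) and that of *Wfdc17* 0.01 (89.5 and 90.2 CPM). Neutrophil-like cells with a UMI of *Clec4a1* or *Clec4a3*, 27 WT and 46 *Tet2* KO cells, held 1613 and 969 CPM of *Apoe* against 31.5 and 111.5 in the others. *Saa3* had 0 UMIs in 154 WT neutrophil-like cells, which with 3 counts as the limit allows up to 1.95% of cells with a UMI and 2.00 CPM, and 153 UMIs in 10 of 171 *Tet2* KO cells, of which 1 cell held 135. With WT set to 3 UMIs, the *Tet2* KO level of 85.2 CPM was 42.7-fold higher, a log2 ratio of 5.42 with a lower limit of 5.10. Without the 3 highest cells of each library this log2 ratio was 1.48. Without the cells that met another type the *Tet2* KO level was 1.70 CPM, from 2 UMIs.

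DC-like cells (73 WT and 237 *Tet2* KO) were at 27.9 (15.9 to 45.2) and 156.1 CPM (139.5 to 174.1) of *Apoe*, log2 ratio 2.49 (1.77 to 3.31), where 15 of the 16 WT UMIs were in 1 cell. Without cells that met another type, *Apoe* had 1 UMI in WT DC-like cells (2.30 CPM) and was at 68.4 CPM in *Tet2* KO DC-like cells. *Wfdc17* was broader there, at 191.5 (157.4 to 230.8) and 507 CPM (476 to 538), log2 ratio 1.4 (1.12 to 1.70), with a UMI in 38.4% of the WT cells (27.2% to 50.5%) and 73.4% of the *Tet2* KO cells (67.3% to 78.9%). Without cells that met another type *Wfdc17* was at 172.8 and 387 CPM. *Saa3* had 0 UMIs in the WT and 71 in 2 *Tet2* KO DC-like cells, 70 of them in 1 cell.

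In pDC-like cells *Apoe* was at 6.78 and 28.6 CPM, log2 ratio 2.08 (1.18 to 3.1), and *Wfdc17* at 43.0 and 74.3 CPM, log2 ratio 0.79 (0.39 to 1.20), with 2 and 4 UMIs of *Saa3*. Without cells that met another type the pDC-like levels were 6.52 and 16.7 CPM of *Apoe* and 47.0 and 52.6 CPM of *Wfdc17*. Plasma-cell-like cells were at 21.0 and 73.2 CPM of *Apoe*, log2 ratio 1.80 (1.34 to 2.28), and at 29.3 and 92.3 CPM of *Wfdc17*, log2 ratio 1.66 (1.27 to 2.06), and 68.6% of them met another type. In the rest of them *Apoe* was at 8.19 and 40.7 CPM and *Wfdc17* at 3.28 and 33.9 CPM. The 41 WT and 85 *Tet2* KO B-cell-like cells were at 336.5 and 440.0 CPM of *Apoe*, and the 18 WT and 81 *Tet2* KO T/NK-like cells at 44.4 and 467, with 58.7% and 51.5% meeting another type. Without those the *Apoe* levels were 42.7 and 63.9 CPM in B-cell-like and 14.8 and 99.1 CPM in T/NK-like cells. *Saa3* was at 0 in the WT cells of both types, and its 146 UMIs in *Tet2* KO T/NK-like cells, at 169.6 CPM the highest *Saa3* level of a type with 50 cells, lay in 8 cells, 3 of which held 95.2%. *Wfdc17* was at 641.4 CPM in these *Tet2* KO cells. Without cells that met another type, *Tet2* KO T/NK-like cells were at 7.43 CPM of *Saa3*, from 3 UMIs, and 118.9 CPM of *Wfdc17*. In the 20 *Tet2* KO T/NK-like cells with 5 or more *Apoe* UMIs, *Wfdc17* was at 1362 CPM and *Clec4a3* at 167.2, against 232.5 and 25 in the 42 cells without *Apoe*.

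The background shares at 2-fold were 1.25% in monocyte-like, 3.24% in neutrophil-like, 1.23% in DC-like, 0.238% in pDC-like and 2.79% in plasma-cell-like cells, and all genes had a median log2 ratio of 0.26 in neutrophil-like and 0.30 in plasma-cell-like cells. At 100 UMIs 3 members passed in monocyte-like and neutrophil-like cells, 2 in DC-like and plasma-cell-like cells (*Apoe* and *Wfdc17*) and 1 in pDC-like cells (*Wfdc17*). Past 2-fold were 3, 2 (not *Apoe*), 2, 2 and 0 of these, a count that follows from how the genes were chosen. *Saa3* reached 100 UMIs through the *Tet2* KO cells. It had 10 WT and 540 *Tet2* KO UMIs in monocyte-like cells and 0 and 153 in neutrophil-like cells. Of these 153, 135 were in 1 cell. Without cells that met another type, *Wfdc17* in neutrophil-like cells was at 89.5 CPM in WT and 90.2 in *Tet2* KO.

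Low shares in types not known for these genes give a reference, which may hold free RNA or misassigned cells. In plasma-cell-like cells, with median depths of 14801.5 (WT) and 12886 UMIs (*Tet2* KO), *Saa3* had a UMI in 0 of 154 WT cells, which by the same limit allows up to 1.95%, and in 1.14% (0.138% to 4.04%) of *Tet2* KO cells. In the Lin-/CD11b+ sort the HSPC-like shares of *Saa3*, 0.990% (0.205% to 2.87%) in WT and 0.502% (0.104% to 1.46%) in *Tet2* KO cells, were near these values. In the GMP sort they were 2.38% (0.494% to 6.80%) and 2.84% (1.05% to 6.09%), at median depths of 19095.5 and 15465 UMIs. The share of *Tet2* KO monocyte-like cells of the Lin-/CD11b+ sort was 9.95% (7.73% to 12.6%). Of the plasma-cell-like cells 68.6% met another type, which limits them as a reference. For *Wfdc17* the basophil-like cells of the GMP sort gave the lowest shares, 1.80% and 1.36%, and for *Apoe* the WT DC-like cells did, 2.74%, followed by the WT pDC-like cells, 5.70%. The part of free RNA in the levels of other types was not tested.

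Over the 36 combinations of library and type with at least 50 cells, the genes whose log2(CPM + 10) ran most like each member differed. For *Apoe* they were *Rtp4* (Pearson r = 0.82), *Lpcat2* (0.81), *E230001N04Rik* (0.81), *2310001H17Rik* (0.78) and *Tmem71* (0.77), and 4 of these 5 were highest in basophil-like cells. For *Saa3* they were *Ly6i* (0.87), *Vcan* (0.86), *Vps54* (0.85), *Lpl* (0.82) and *Ms4a6d* (0.81), and for *Wfdc17* *Peli1* (0.91), *Ifi27l2a* (0.91), *Klf3* (0.90), *Metrnl* (0.89) and *Susd3* (0.89), and these 10 were all highest in monocyte- or T/NK-like cells of the *Tet2* KO Lin-/CD11b+ library. Between the members r was 0.31 for *Apoe* and *Saa3*, 0.27 for *Apoe* and *Wfdc17* and 0.67 for *Saa3* and *Wfdc17*. The points share libraries and depth, and these values are a description over 11204 genes. Some *Saa3* points of the *Tet2* KO Lin-/CD11b+ library rest on few cells. In neutrophil-like cells 1 cell held 135 of 153 UMIs, and in DC-like cells 1 cell held 70 of 71. In T/NK-like cells the 3 highest cells held 95.2%.

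Genes that share a pathway or a chromosome region with the members were mostly near the median of all genes. Of 29 genes of lipoprotein and cholesterol handling, 20 in the GMP and 23 in the Lin-/CD11b+ sort had 100 UMIs. In *Tet2* KO libraries 1 and 2 of them were at least 2-fold higher, beside 0.19% and 0.809% of all genes, and 0 were at least 2-fold lower. Their median log2 ratios were -0.11 and 0.20, beside -0.05 and 0.08 for all genes. *Lpl*, the lipoprotein lipase, was the gene past 2-fold in both sorts, at 2.10 and 7.78 CPM, log2 ratio 1.89 (1.45 to 2.36), and at 4.06 and 15.9, log2 ratio 1.97 (1.64 to 2.31). In the Lin-/CD11b+ sort *Msr1*, a scavenger receptor, was at 2.20 and 5.73 CPM, log2 ratio 1.38 (0.92 to 1.85). *Lrp8*, a receptor that binds *Apoe*, was at 6.90 and 6.27 CPM in the GMP sort and at 6.35 and 6.14 in the Lin-/CD11b+ sort.

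Of 24 listed acute phase genes in the table, 15 and 18 had 100 UMIs and 0 were past 2-fold, with median log2 ratios of -0.04 and 0.22. *Saa1*, the neighbouring serum amyloid, had 0 UMIs in the GMP sort and 1 in each Lin-/CD11b+ library. Of 9 whey acidic protein domain genes in the counts, 2 had 100 UMIs, *Wfdc21* and *Slpi*, and neither was past 2-fold. Among 12 alarmins and inflammatory monocyte products, 11 had 100 UMIs in each sort. In the GMP sort 2 of them, *S100a8* (200.9 and 589 CPM, log2 ratio 1.55, 1.51 to 1.60) and *Chil3* (8.96 and 35.8 CPM, log2 ratio 2.00, 1.79 to 2.22), were past 2-fold higher, beside the 0.19% of all genes. In the Lin-/CD11b+ sort *S100a8* was at 13543 and 10600 CPM, log2 ratio -0.35 (-0.36 to -0.35), 0 of the 11 were past 2-fold higher, and 1, *Mt2*, was past 2-fold lower in *Tet2* KO cells (31.3 and 6.67 CPM, log2 ratio -2.23, -2.45 to -2.01). Of all genes, 0.449% in the GMP and 0.376% in the Lin-/CD11b+ sort were at least 2-fold lower.

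Of the neighbours within 50 kb of *Apoe* or *Saa3* that had 100 UMIs over a pair of libraries, 0 were past 2-fold. Of all genes, 0.19% in the GMP and 0.809% in the Lin-/CD11b+ sort were at least 2-fold higher. *Apoc1*, 3449 bases from *Apoe*, was at 4.46 and 3.24 CPM in the GMP and 2.91 and 3.5 in the Lin-/CD11b+ sort, and *Tomm40*, 2125 bases away on the other side, at 113.4 and 108.5 and at 63.8 and 67.7. *Apoc4*, also near *Apoe*, had 0 WT and 14 *Tet2* KO UMIs in the Lin-/CD11b+ sort. *Saal1*, 1318 bases from *Saa3*, was at 26.3 and 24.5 and at 21.6 and 22.6 CPM. Near *Wfdc17*, *Wfdc18*, 2747 bases away, was at 0.794 and 2.06 CPM in the Lin-/CD11b+ sort, log2 ratio 1.37 (0.61 to 2.21), from 18 and 70 UMIs. *Ccl4*, a chemokine gene 39308 bases from *Wfdc17*, was past 2-fold lower in the *Tet2* KO library of both sorts. It was at 16.1 and 4.37 CPM in the GMP sort, log2 ratio -1.88 (-2.14 to -1.62). In the Lin-/CD11b+ sort it was at 28.7 and 13.3, log2 ratio -1.11 (-1.29 to -0.94). At least 2-fold lower were 0.449% and 0.376% of all genes.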

How the data were processed

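scRNA-seq of sorted mouse bone marrow cells was analysed in 4 libraries, 1 per genotype and sort. Per the submitters' processing notes, the authors used Cell Ranger 3.1.0, Seurat and the mm10 build, and they deposited an unnormalized matrix of counts (UMIs by gene and cell) with the library of each cell. Cells with 200 genes or more, 5000 UMIs or more and a mitochondrial share below 5% were to be kept, and 413 cells at 5% or more are in the deposited counts and were kept. Version 2 of the reagent kit is named in the protocol and a later version in the design text. The genes *Apoe*, *Saa3* and *Wfdc17*, the gene lists and the tests were chosen with earlier results of these data known.

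Cell types were assigned per cell as the marker list with the highest mean standardized level among lists with at least 3 detected markers. The markers were fixed earlier, this rule after values of the members had been seen, and 945 cells (10.5%) led the next type by under 0.1. No doublet caller was run, and the 662 cells (7.38%) that met a further type at 1 SD were left out as an alternative. Types are rebuilt names and may differ from those of the study. UMIs were summed per library and type and given as CPM, which compare 1 gene between cells and not genes with each other. Ratios were formed for types that held 50 cells or more in each of the libraries compared, and a library at 0 was set to a floor of 3 UMIs. Cells were thinned to 5000 UMIs in 1 draw (seed 1), and none was left out by this. With 1 library per group no test was made. The computation of ratios and intervals was checked on simulated counts.

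Besides the members, genes named were the 5 most correlated with each member over types, listed genes at 2-fold or more the same way in both sorts, and markers or neighbours that a value is read beside. Splits by *Gata2*, *Flt3* and lectin genes, cells with 5 or more UMIs, and listed genes past 2-fold in 1 sort were chosen after values were seen. The alternatives were TMM factors (edgeR 4.0.16, R 4.3.3), the mean over cells, cells left out by type, depth, mitochondrial share, barcode or marker, and Leiden clusters (2000 variable genes, 30 components, 30 neighbours, resolution 0.8) made in Python 3.11.15 with leidenalg 0.10.2, scanpy 1.11.5, igraph 0.11.9, numpy 2.4.6, scipy 1.17.1, pandas 2.3.3 and matplotlib 3.10.9. The chromatin data were not analysed here.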

Additional observations from a re-analysis of the deposited data

How the results depend on the processing

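With 1 library per group, every difference rests on 1 mouse or pool per genotype, and low counts limit *Saa3* most. Alternatives were compared by the log2 ratio of Tet2 KO over WT libraries. For *Apoe* in the GMP sort (0.27) the ratio was 0.080 with cells thinned to 5000 UMIs, 0.075 as the mean over single cells, 0.36 with types weighted equally and 1.07 without basophil-like cells. For *Apoe* in the Lin-/CD11b+ sort (1.15) it was 1.06 with TMM factors, 1.05 with thinned cells, 1.05 as the mean over single cells, 0.52 with types weighted equally, 1.08 on CPM + 10, 1.37 without basophil-like cells, 1.04 without cells meeting more than 1 type and 1.24 without the 3 highest cells. For *Saa3* the ratios were 4.02 and 5.23 with thinned cells and 0.69 and 1.83 on CPM + 10 in the GMP (3.11) and Lin-/CD11b+ (4.52) sorts, and 3.41 without cells meeting more than 1 type in the latter. CPM + 10 by its construction shrinks ratios of low levels. For *Wfdc17* in the GMP sort (0.69) they were 0.44 with thinned cells, 0.33 with types weighted equally and 0.36 on CPM + 10. For *Wfdc17* in the Lin-/CD11b+ sort (1.72) they were 1.63 with TMM factors, 1.59 with thinned cells, 1.61 as the mean over single cells, 1.33 with types weighted equally, 1.61 on CPM + 10 and 1.43 without cells meeting more than 1 type. The cause of these shifts was otherwise not tested. At 1.5-fold in place of 2-fold, the calls of genes as higher, added over both sorts, were 381 in place of 103, since more genes pass a lower limit. A gene called in both sorts counted in each of them. In 58 other comparisons the value moved by less than its counting error or, for a count, less than 1.5 times, and no library ratio changed sign. Of the ratios per type, 117 stayed within counting error and 31 moved further. Leaving out cells near a gate border, basophil-like cells, or in each type cells that met another type or the 3 highest cells, was added after seeing the data. No paired analysis was possible because each group had 1 library and the groups share a single replicate number.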
